A study of Homo sapiens and Mus musculus with 17 samples.

Results

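The collagen chain genes were taken as every row whose gene symbol reads COL, a number, A and a number, which gave 44 of 62714 genes in the human table and 44 of 55491 in the mouse table. Collagens are secreted matrix proteins built from alpha chains that wind around each other into a helix in the endoplasmic reticulum (ER), where they are hydroxylated, folded and loaded into large transport carriers. Fibrillar chains form the cables of connective tissue, type IV chains form the sheet of basement membranes, and type VI chains form beaded filaments that surround cells such as adipocytes. SEL1L and HRD1 (gene SYVN1) form an ER-associated degradation complex that removes misfolded secretory proteins, and the study measured transcripts so that changes in protein could be set against changes in mRNA.

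RNA with polyA tails was sequenced from HEK293T cells, a human embryonic kidney line, in 3 WT, 3 HRD1 KO and 3 SEL1L KO libraries. The knockout cells were made with CRISPR/Cas9, and the WT cells had received empty plasmids without a guide. Whether a knockout line is 1 clone is not given in the sources used here. Brown adipose tissue (BAT) came from 12-week-old C57BL/6J mice: 3 WT, 2 Hrd1 KO (Hrd1, also called Syvn1, flox/flox; Ucp1-Cre) and 3 Sel1L KO (Sel1l flox/flox; Ucp1-Cre). Ucp1-Cre acts in brown adipocytes, so the other cells of the tissue keep both genes, and whole tissue was sequenced. In bulk tissue, more cells of a type and more RNA per cell cannot be told apart. The labels do not tie the HEK293T libraries to separate cultures, so p-values measure the spread between these libraries, which may be technical.

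Values are FPKM, fragments per length of gene and per size of library, which can be compared between genes since they are per length. The deepest HEK293T library was 1.89 times as deep as the shallowest, and the deepest BAT library 1.69 times. The HEK293T libraries numbered 3 stood apart from those numbered 1 and 2 in every genotype. The 7 HEK293 marker genes summed to 351 to 773 FPKM over the HEK293T libraries, against 0.39 to 3.26 for the 7 fibroblast markers, and the 10 brown adipocyte markers summed to 18920 to 28780 in BAT. SEL1L was 4.39, 8.74 and 12.85 FPKM in WT and 1.82, 3.36 and 2.59 in SEL1L KO cells. SYVN1 was not lower in HRD1 KO cells, at 22.47, 18.48 and 19.83 against 16.95, 16.70 and 16.92 FPKM, nor Syvn1 in Hrd1 KO BAT, at 14.05 and 13.77 against 5.37, 5.65 and 5.2. Sel1l was 25.20, 8.17 and 8.38 FPKM in Sel1L KO BAT against 9.10, 12.88 and 10.26 in WT. Genotypes are therefore given as labelled, and whether each library carries its labelled genotype cannot be told from these values. The first Sel1L KO library also held 118.36 FPKM of Syvn1, against 16.55 and 9.96 in the other two.

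A promoter was looked at where chains sit side by side in the genome. COL4A1 and COL4A2 encode the most widespread chains of type IV collagen and are read in opposite directions from starts 127 bases apart on human chromosome 13. The window of COL4A2 (GRCh38.p14, chr13:110307034-110307333, plus strand, RefSeq) runs from 250 bases before its start to 50 after it, and the start of COL4A1 on the other strand lies at base 124 of it. The window of COL6A2 (GRCh38.p14, chr21:46097862-46098161, plus strand, RefSeq) is given beside it as the promoter of another of the most abundant chains in HEK293T cells. Capitals mark the CCAAT box with its letters CCAAT, the GC box with GGGCGG and the TATA box with TATAAA, searched on both strands.

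COL4A2: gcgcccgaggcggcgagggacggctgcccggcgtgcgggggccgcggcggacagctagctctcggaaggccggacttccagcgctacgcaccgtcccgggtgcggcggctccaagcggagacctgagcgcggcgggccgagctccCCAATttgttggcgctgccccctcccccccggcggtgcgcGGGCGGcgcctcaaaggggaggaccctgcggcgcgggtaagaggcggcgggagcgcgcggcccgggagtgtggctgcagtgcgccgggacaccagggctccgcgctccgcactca
COL6A2: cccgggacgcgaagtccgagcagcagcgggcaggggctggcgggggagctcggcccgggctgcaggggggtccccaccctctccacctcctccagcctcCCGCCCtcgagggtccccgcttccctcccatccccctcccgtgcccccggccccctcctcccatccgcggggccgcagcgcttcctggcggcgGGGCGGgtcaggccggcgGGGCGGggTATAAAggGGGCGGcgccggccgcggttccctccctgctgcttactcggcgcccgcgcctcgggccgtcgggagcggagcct

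The COL4A2 window held 1 CCAAT and 1 GGGCGG, and no TATAAA. The COL4A1 window, which is not printed, held 1 CCAAT and 2 GGGCGG, and no TATAAA. The COL6A2 window held 4 GGGCGG and 1 TATAAA. Over 35116 human promoter windows of this length, 34.6% held CCAAT, 45% GGGCGG and 11.5% TATAAA. Of the members, 32 were matched in the table, with 44 windows. Across the 9 HEK293T libraries, COL4A2 was 2.69 to 3.91 times COL4A1, although each varied more than 2-fold between libraries. COL4A5 and COL4A6 are another head-to-head pair, with starts 380 bases apart when the first of the 2 windows of COL4A6 is taken. COL4A5 was 1.91 to 4.46 times COL4A6. In BAT the order of the first pair was the other way around, with Col4a1 1.82 to 2.31 times Col4a2.

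HEK293T cells and BAT used different sets of collagen chains. A mean of at least 1 FPKM in WT was reached in both by 10 of the 43 genes found in both tables, in HEK293T cells alone by 10, in BAT alone by 7 and in neither by 16. Of the 44 members, 22 were tested in HEK293T cells and 22 in BAT, which required 1 FPKM or more in 3 HEK293T libraries or 2 BAT libraries. The other 22 stayed at or under 6.14 FPKM in HEK293T cells and 1.59 in BAT. Of these, 3 human genes (COL1A2, COL11A1 and COL22A1) and 1 mouse gene (Col26a1) were listed at 0 in every library.

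In HEK293T cells the collagen genes together summed to 271 ± 69.3 FPKM in WT (SD, n = 3), 277 ± 88.9 in HRD1 KO and 209 ± 24.3 in SEL1L KO. The beaded filament chains of type VI were the largest class, with 26.3 to 38.4% of this sum over the 9 libraries, and the basement membrane chains of type IV, with 15.8 to 30.6%, were next by their mean in each genotype. In WT BAT the sum was 159 ± 11.3 FPKM (SD, n = 3), of which type IV took 53.3 to 56.5% and the 11 fibrillar chains 23.9 to 26.4%. The BAT sum was 337 ± 72.1 in Hrd1 KO (n = 2) and 253 ± 51.1 in Sel1L KO (n = 3), and both groups lay above all WT libraries. After median-ratio scaling, a correction for library-wide shifts explained with the BAT tests, the sums were 175 ± 10.5, 270 ± 35.1 and 265 ± 79.5.

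**Figure D1:**
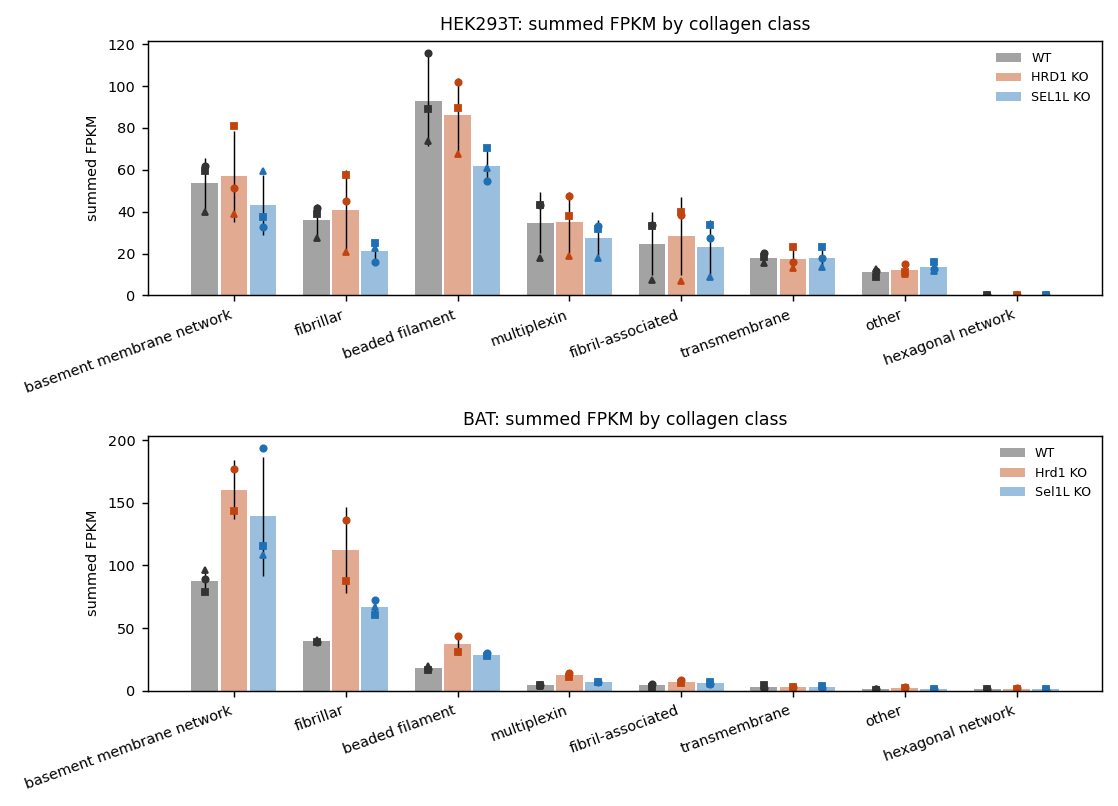
Summed FPKM of 8 collagen classes (bars, mean; error bars, SD; symbols, libraries: circle, square and triangle for replicates 1, 2 and 3) in HEK293T cells and BAT by genotype. Type VI leads in HEK293T cells and type IV in BAT, where both knockouts lie above WT for the type IV, fibrillar and beaded filament classes.

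The most abundant chain in HEK293T cells was COL6A1, which encodes a chain of type VI collagen (ENSG00000142156, chromosome 21, 45981770 to 46005050, GRCh38). It was 69.70, 54.98 and 60.36 FPKM in WT, 61.11, 50.85 and 53.75 in HRD1 KO and 37.69, 46.14 and 48.30 in SEL1L KO cells. All SEL1L KO libraries lay below all WT and all HRD1 KO libraries. After median-ratio scaling this held against WT but not against HRD1 KO. Its partner COL6A2 was 45.86, 33.43 and 12.82 FPKM in WT, 40.56, 38.28 and 13.58 in HRD1 KO and 16.49, 23.29 and 12.37 in SEL1L KO cells. The third chain of the usual type VI assembly, COL6A3, reached at most 0.65 FPKM in any library and was not tested.

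The basement membrane chain COL4A2 was 30.05, 25.56 and 17.44 FPKM in WT, 29.48, 35.43 and 15.85 in HRD1 KO and 13.92, 15.86 and 30.08 in SEL1L KO cells, and the groups overlapped. COL4A5, whose loss causes Alport kidney disease, was 15.16, 16.93 and 14.26 FPKM in WT, 8.80, 22.76 and 14.16 in HRD1 KO and 7.94, 10.99 and 15.06 in SEL1L KO cells. COL18A1, which encodes the precursor of endostatin, was 43.09, 43.21 and 17.87 FPKM in WT, 47.55, 38.01 and 18.76 in HRD1 KO and 33.13, 31.77 and 17.93 in SEL1L KO cells. In each genotype the library numbered 3 held the lowest COL18A1 value.

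Among the fibrillar chains, COL2A1, the chain of cartilage collagen (ENSG00000139219, chromosome 12, 47972967 to 48004554, GRCh38), varied most. It was 13.38, 10.53 and 0.02 FPKM in WT and 19.37, 18.25 and 0.06 in HRD1 KO, but 0.17, 0.16 and 0.03 in SEL1L KO cells. In the libraries numbered 1 and 2 it was high in WT and HRD1 KO and near 0 in SEL1L KO, while all 3 libraries numbered 3 were near 0. The HEK293 marker sum was also lowest in the library numbered 3 of each genotype, at 351, 436 and 418 FPKM, and its part in this pattern was not tested.

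COL1A1, a chain of type I collagen, was 8.33, 7.98 and 3.28 FPKM in WT, 9.54, 14.99 and 4.5 in HRD1 KO and 3.62, 5.04 and 6.84 in SEL1L KO cells. COL1A2, its usual partner, was listed at 0 in the same libraries. COL5A2, which joins type I fibrils, was 0.42, 0.81 and 1.49 FPKM in WT, 0.56, 1.41 and 1.49 in HRD1 KO and 0.30, 0.41 and 0.33 in SEL1L KO cells, where every library lay below the others. The closest values were 0.41 in SEL1L KO and 0.42 FPKM in WT. COL27A1 was 11.48, 12.53 and 14.75 FPKM in WT, 8.39, 12.75 and 9.13 in HRD1 KO and 7.47, 11.65 and 10.17 in SEL1L KO cells.

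The fibril-associated chain COL9A3 was 26.09, 24.70 and 3.31 FPKM in WT, 31.54, 26.95 and 3.26 in HRD1 KO and 21.99, 25.42 and 4.08 in SEL1L KO cells. The split by library number was larger than any by genotype. Of the 22 tested members, 8 were lower in the third library than in the mean of the first 2 in every genotype and 1 was higher. The same count was not made over all genes, so it does not set the collagen genes apart from them. In the transmembrane chain COL13A1 the third library was lowest in both knockouts but not in WT, at 12.62, 11.01 and 11.27 FPKM in WT, 12.16, 13.94 and 7.97 in HRD1 KO and 13.65, 16.40 and 9.38 in SEL1L KO cells. COL16A1 reached 6.14 FPKM in the second HRD1 KO library and at most 0.89 in the other 8, and was not tested.

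**Figure D2:**
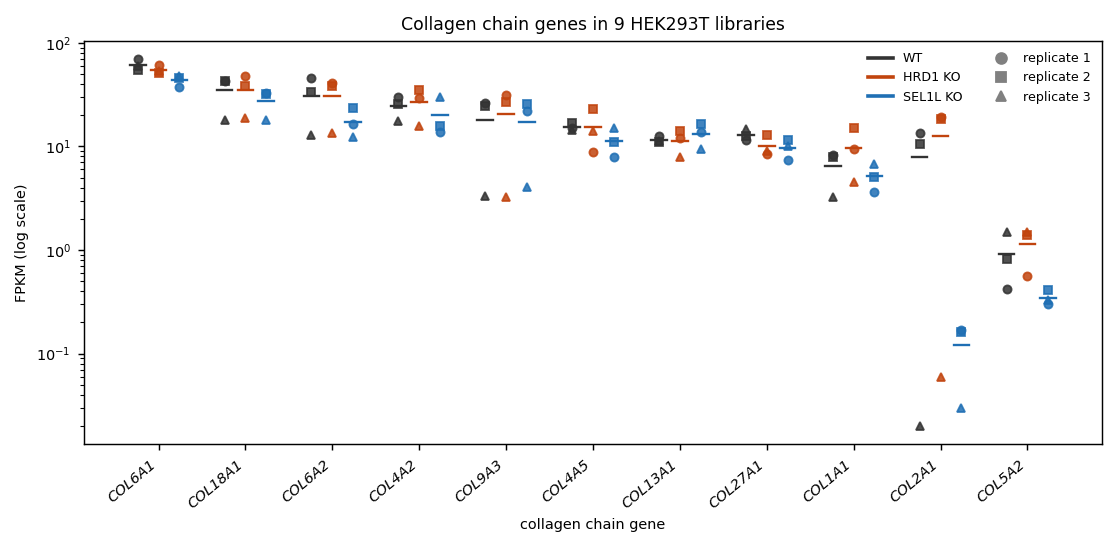
FPKM (log axis) of 11 collagen chain genes in 9 HEK293T libraries, coloured by genotype with circle, square and triangle for replicates 1, 2 and 3 and a line at the mean. COL2A1 and COL9A3 are low in every replicate 3, and COL2A1 is also low in SEL1L KO replicates 1 and 2 at 0.17 and 0.16 FPKM.

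In HRD1 KO against WT cells, 0 of the 22 tested members passed the test (limma on log2(FPKM + 0.1), Benjamini-Hochberg adjusted p under 0.05), where 0.057% of the 15796 genes tested did. None had an unadjusted p under 0.05 either, against 2% of all genes. Their log2 differences ran from -0.64 to 0.58 with a median of 0.02, and the median of all genes was -0.05. The smallest p-values belonged to COL27A1, with a difference of -0.37 ± 0.25 (SE; adjusted p = 1.0 by limma), and COL1A1, with 0.51 ± 0.49 (adjusted p = 1.0 by limma).

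In SEL1L KO against WT cells, 0 of 22 passed (0.0317% of all genes did). The median was -0.35 on the log2 scale against -0.06 over all genes, with 16 members below 0 and 6 above. All 6 tested fibrillar chains were below 0, from -3.63 to -0.27, as were both tested type VI chains. Without the libraries numbered 3, COL11A2 turned to 0.07, and within number 3 COL1A1 differed by 1.04. At an unadjusted p under 0.05 there was 1 member, COL6A1 at -0.49 ± 0.18 (SE; adjusted p = 1.0 by limma), against 1.49% of all genes. COL2A1 differed by -3.63 ± 2.07 and COL5A2 by -1.03 ± 0.67 (both adjusted p = 1.0). In 3 members (COL5A1, COL5A2 and COL6A1) every SEL1L KO library was below every WT library, which held for 3.72% of all genes. After median-ratio scaling this held for 2 members, COL5A2 and COL6A1, and for 415 of 15796 genes. COL5A2 met the filter for testing only through WT and HRD1 KO libraries, so its separation is not independent of that filter.

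Since libraries with the same number deviated together in HEK293T cells, the numbers were also fitted as a block. No member passed the threshold with the replicate block, and 4 were lower in SEL1L KO at an unadjusted p under 0.05, against 3.52% of all genes. These were COL2A1, COL6A1, COL6A2 and COL27A1 (adjusted p = 0.83, 0.84, 0.86 and 0.88 by limma). Within numbers, SEL1L KO minus WT of COL2A1 was -5.64 and -5.35 for numbers 1 and 2 and 0.12 for number 3, and that of COL6A1 was -0.89, -0.25 and -0.32.

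A fit without the 3 libraries numbered 3 was chosen after seeing the data. In these libraries COL2A1 was near 0 in every genotype. Without them 1 member passed in SEL1L KO against WT, COL2A1 at -5.50 (adjusted p = 0.0146 by limma), where 0.0127% of all genes did. COL2A1 was also the 1 member that passed in HRD1 KO against SEL1L KO, at 6.16 (adjusted p = 0.0024 by limma), against 0.165% of all genes. Since the fit leaves out the libraries in which COL2A1 did not differ, neither pass can stand for all 9 libraries. With all 9 libraries 0 of 22 members passed in HRD1 KO against SEL1L KO, as did 0% of all genes. There COL2A1 differed by 4.2 ± 2.07 and COL5A2 by 1.39 ± 0.67 (SE; adjusted p = 1.0 by limma for both), and the median was 0.34.

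**Figure D3:**
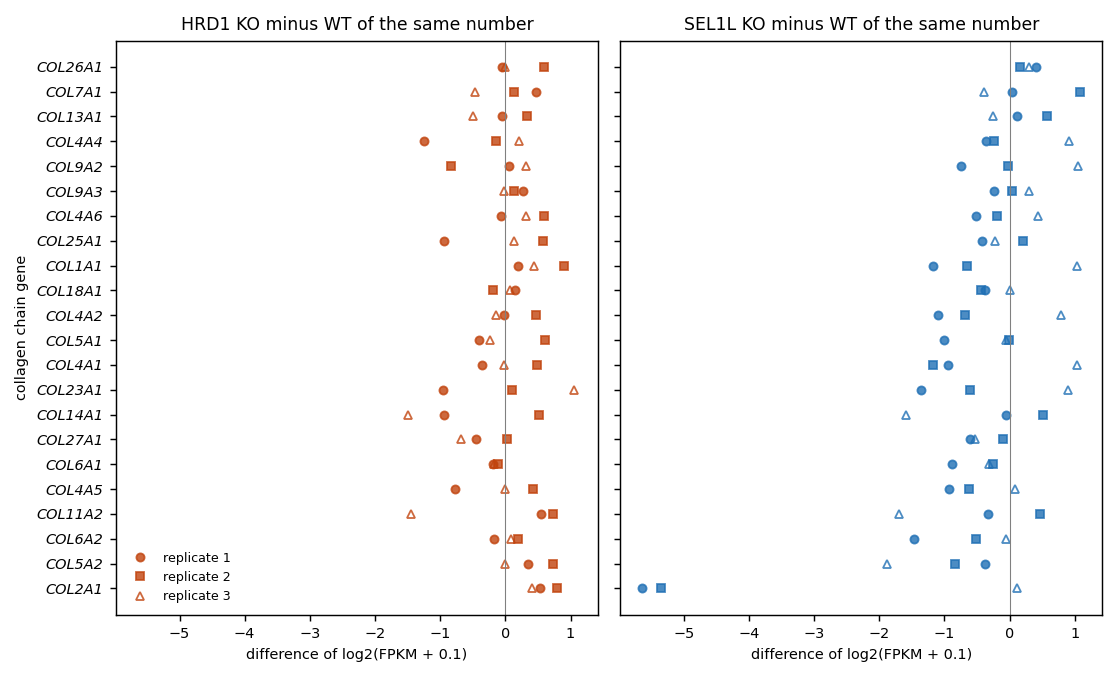
Difference of log2(FPKM + 0.1) between each knockout library and the WT library of the same number for the 22 tested members in HEK293T cells (circle, square and open triangle for replicates 1, 2 and 3). COL2A1 in SEL1L KO lies at -5.64 and -5.35 for replicates 1 and 2 and at 0.12 for replicate 3.

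Of the genes that act on collagen in HEK293T cells, 0 passed the test in either knockout in any list. P4HB, the shared subunit of prolyl 4-hydroxylase and a protein disulfide isomerase, was the nearest of the 17 tested ER modification and folding genes, at 0.85 ± 0.19 in HRD1 KO (SE; adjusted p = 0.67 by limma) and 0.64 ± 0.19 in SEL1L KO (adjusted p = 1.0). With the replicate block P4HB passed in HRD1 KO (adjusted p = 0.0382 by limma). Of the 8 ER export genes, SEC24D, a cargo adaptor of the COPII coat, differed by 1.38 ± 0.38 in HRD1 KO and SEC13, an outer coat subunit, by 0.51 ± 0.20 in SEL1L KO (adjusted p = 1.0 by limma for both). The remaining lists gave their smallest p-values for LAMB2 (-0.67), MMP14 (0.68), ITGB1 (-0.11), TNXB (-1.03) and LOXL1 (-0.92) in HRD1 KO. In SEL1L KO these were LAMC1 (-0.36), TIMP3 (0.36), MRC2 (-0.88), TNXB (-0.83) and LOXL2 (-0.68) on the log2 scale.

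In BAT the most abundant collagen chains were higher in the libraries of both knockouts than in WT, with Col27a1 and Col6a3 as exceptions in Sel1L KO. Col4a1, the leading basement membrane chain, was 56.93, 50.98 and 63.25 FPKM in WT, 114.54 and 93.42 in Hrd1 KO and 134.88, 77.67 and 71.11 in Sel1L KO. Its partner Col4a2 was 31.31, 25.99 and 31.70 FPKM in WT, 61.18 and 48.95 in Hrd1 KO and 58.35, 36.78 and 35.43 in Sel1L KO. For both genes no knockout library overlapped WT, though after median-ratio scaling Col4a2 did in Sel1L KO, and the first Sel1L KO library was well above the other two.

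Col3a1, the chain of the fine type III fibrils, was 13.14, 15.64 and 14.78 FPKM in WT, 46.95 and 31.33 in Hrd1 KO and 33.10, 25.62 and 31.83 in Sel1L KO. Col1a2, a type I chain, was 6.79, 6.71 and 6.2 FPKM in WT, 21.32 and 17.47 in Hrd1 KO and 16.24, 11.17 and 11.40 in Sel1L KO. The other type I chain, Col1a1, named after its values were seen, was 2.66, 2.27 and 1.85 FPKM in WT, 8.56 and 7.35 in Hrd1 KO and 5.76, 4.37 and 3.5 in Sel1L KO. Col1a2 was 2.38 to 3.35 times Col1a1 over the 8 libraries. All 3 genes were separated from WT in both knockouts.

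Col5a3, a type V chain (ENSMUSG00000004098, chromosome 9, 20770050 to 20815067, GRCm38), was 1.49, 1.96 and 2.45 FPKM in WT, 13.88 and 6.99 in Hrd1 KO and 3.65, 3.52 and 3.53 in Sel1L KO. Col27a1, a fibrillar chain (ENSMUSG00000045672, chromosome 4, 63214004 to 63334991, GRCm38), was high in Hrd1 KO alone. It was 8.13, 5.04 and 6.65 FPKM in WT, 29.41 and 14.72 in Hrd1 KO, but 4.43, 5.18 and 5.77 in Sel1L KO, where it overlapped WT. Col5a1, another type V chain named after its values were seen, was also above WT in both Hrd1 KO libraries and overlapped WT in Sel1L KO.

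The type VI chains Col6a1 and Col6a2 were each close to 7 FPKM in WT. Col6a1 was 7.18, 7.03 and 7.15 FPKM in WT, 16.70 and 11.67 in Hrd1 KO and 11.18, 11.33 and 11.17 in Sel1L KO. Col6a2 was 7.15, 6.08 and 7.74 FPKM in WT, 16.38 and 13.22 in Hrd1 KO and 14.73, 10.71 and 11.33 in Sel1L KO. Col6a3 was 2.53, 3.14 and 4.18 FPKM in WT, 9.84 and 5.74 in Hrd1 KO and 3.44, 5.61 and 4.81 in Sel1L KO, so that it overlapped WT in Sel1L KO only. Unlike in HEK293T cells, all 3 chains of the usual assembly were above 2 FPKM.

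The multiplexins, basement membrane collagens with cleavable end domains, had like patterns. Col18a1 (ENSMUSG00000001435, chromosome 10, 77052178 to 77166548, GRCm38) was 1.63, 1.61 and 1.60 FPKM in WT, 5.93 and 5.16 in Hrd1 KO and 2.90, 3.42 and 2.88 in Sel1L KO. Col15a1, named after its values were seen, was 2.96, 3.16 and 2.42 FPKM in WT, 7.92 and 5.96 in Hrd1 KO and 4.0, 3.80 and 4.32 in Sel1L KO. Each knockout group lay above WT for both genes, and Hrd1 KO above Sel1L KO.

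**Figure D4:**
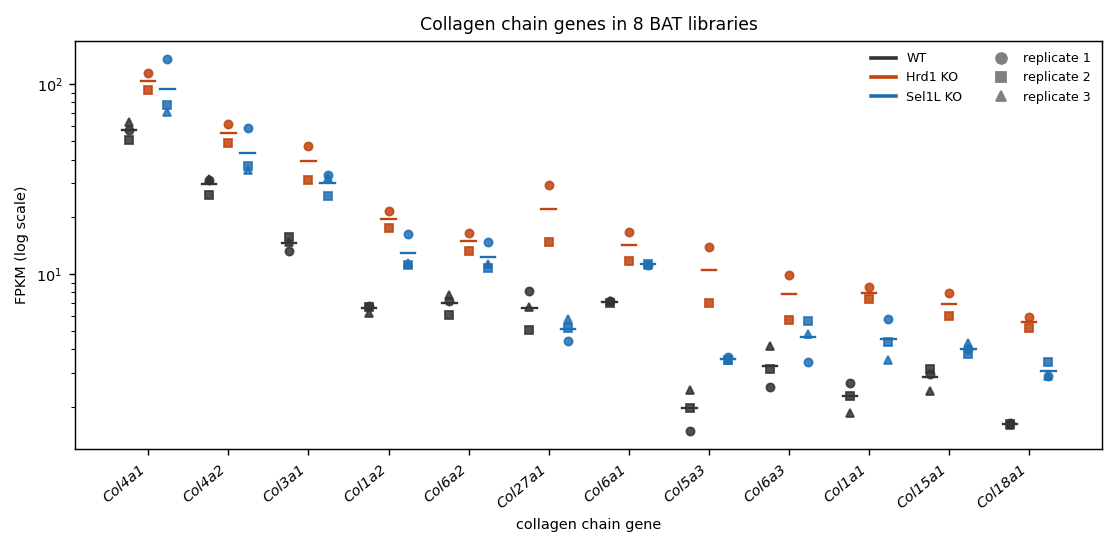
FPKM (log axis) of 12 collagen chain genes in 8 BAT libraries, coloured by genotype with circle, square and triangle for replicates 1, 2 and 3 and a line at the mean. Hrd1 KO libraries lie above WT for every gene shown, and Sel1L KO libraries overlap WT for Col27a1 and Col6a3.

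In Hrd1 KO against WT, 0 of the 22 tested members passed the test at the threshold for BAT (adjusted p under 0.01 by limma), where 0.369% of the 12473 genes tested did. At an adjusted p under 0.05, 9 members passed, all higher, against 4.38% of all genes that were higher at that threshold. They were Col5a3 at 2.29 ± 0.34 on the log2 scale (SE; adjusted p = 0.0147), Col1a1 at 1.78 ± 0.28 (0.0183), Col18a1 at 1.72 ± 0.24 (0.0134), Col27a1 at 1.67 ± 0.33 (0.0342), Col1a2 at 1.54 ± 0.22 (0.0142), Col3a1 at 1.40 ± 0.22 (0.0172), Col15a1 at 1.25 ± 0.24 (0.0315), Col6a2 at 1.07 ± 0.22 (0.0381) and Col6a1 at 0.96 ± 0.20 (0.0382). Col4a1 at 0.86 ± 0.27 and Col4a2 at 0.89 ± 0.24 missed it (adjusted p = 0.0965 and 0.0717 by limma), as did Col6a3 at 1.20 ± 0.34 (0.0770).

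At an unadjusted p under 0.05, 15 members were higher and 0 lower, where 25.4% of all genes were higher. In 15 members both Hrd1 KO libraries were above all WT libraries, against 51.1% of all genes, so that such a separation was common in this contrast. Among them was Col28a1, named after its values were seen, at a mean of 0.35 FPKM in WT. It met the filter for testing only with knockout libraries, so its separation, on either scale, is not independent of that filter. The median of all genes was itself 0.42 higher in Hrd1 KO, and that of the 22 members was 1.10. After median-ratio scaling, which divides each library by the median of its gene-wise ratios and sets the median of all genes to -0.02, the members' median was 0.66. Then 2 members passed at an adjusted p under 0.05, Col5a3 at 1.85 and Col18a1 at 1.28 (adjusted p = 0.0431 by limma for both), against 0.433% of all genes higher. At an unadjusted p under 0.05, 11 members were higher on this scale, against 7.36% of all genes, and in 15 members every Hrd1 KO library was above WT, against 21.1%. In 1 member, the fibrillar chain Col5a2, every Hrd1 KO library was below WT on this scale, as in 2962 of 12473 genes. The 8 tested fibrillar chains had a scaled median of 1.06 and the 3 type IV chains of 0.41. After scaling 3 members were below 0, Col13a1 at -0.49, Col5a2 at -0.35 and Col4a5 at -0.15 (adjusted p = 0.62, 0.57 and 0.92 by limma), named after their values were seen.

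The 9 members with an adjusted p under 0.05 became 0 without Hrd1 KO replicate 1 or without any 1 of the 3 WT libraries, 2 without Hrd1 KO replicate 2, and 5 without Sel1L KO replicate 2 or 3. Without Sel1L KO replicate 1, which entered through the shared estimate of spread, there were 14. Without it, 9 members passed at an adjusted p under 0.01, against 5.72% of all genes that were higher, and after scaling 1 did, Col1a2 at 1.09 (adjusted p = 0.0078 by limma), against 0.818%.

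In Sel1L KO against WT, 0 of 22 members passed at an adjusted p under 0.01 (0.104% of all genes did) and 0 at 0.05 (0.689% of all genes were higher). The median was 0.61 against 0.09 over all genes. At an unadjusted p under 0.05, 11 members were higher and 0 lower, against 12.7% of all genes. The largest of these was Col11a2 at 1.10 ± 0.33, named after its values were seen, and the smallest p-values were those of Col3a1 at 1.05 ± 0.20 (SE; adjusted p = 0.0559 by limma) and Col1a2 at 0.95 ± 0.20 (adjusted p = 0.0706 by limma). In 12 members every Sel1L KO library was above WT, against 17.7% of all genes. These again included Col28a1, whose separation, on either scale, is not independent of the filter for testing.

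After scaling, the Sel1L KO median was 0.52, 8 members were higher at an unadjusted p under 0.05 (8.41% of all genes), 0 at an adjusted p under 0.05 (0.233%), and 11 were separated from WT (12.8%). The type VI chains Col6a1 and Col6a2 stood at 0.55 and 0.70 on this scale. Col27a1 stood at -0.44 ± 0.27 (adjusted p = 0.46 by limma).

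Hrd1 KO was then compared with Sel1L KO directly, where 0 of 22 members passed the threshold (0.0401% of all genes did). At an unadjusted p under 0.05, 6 members were higher in Hrd1 KO, against 15.5% of all genes, and 2 after scaling, against 4.49%. Those 2 were Col27a1, at 2.01 ± 0.33 before scaling and 1.66 ± 0.30 after it (SE; adjusted p = 0.0955 and 0.19 by limma), and Col5a3, at 1.44 ± 0.34 and 1.09 ± 0.30 (adjusted p = 0.16 and 0.35). After scaling, Col6a1, Col6a2, Col3a1 and Col4a1 differed between the knockouts by -0.04, -0.08, 0.00 and -0.16 with SEs of 0.18, 0.24, 0.23 and 0.32. Both knockouts were set against the same 3 WT libraries.

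**Figure D5:**
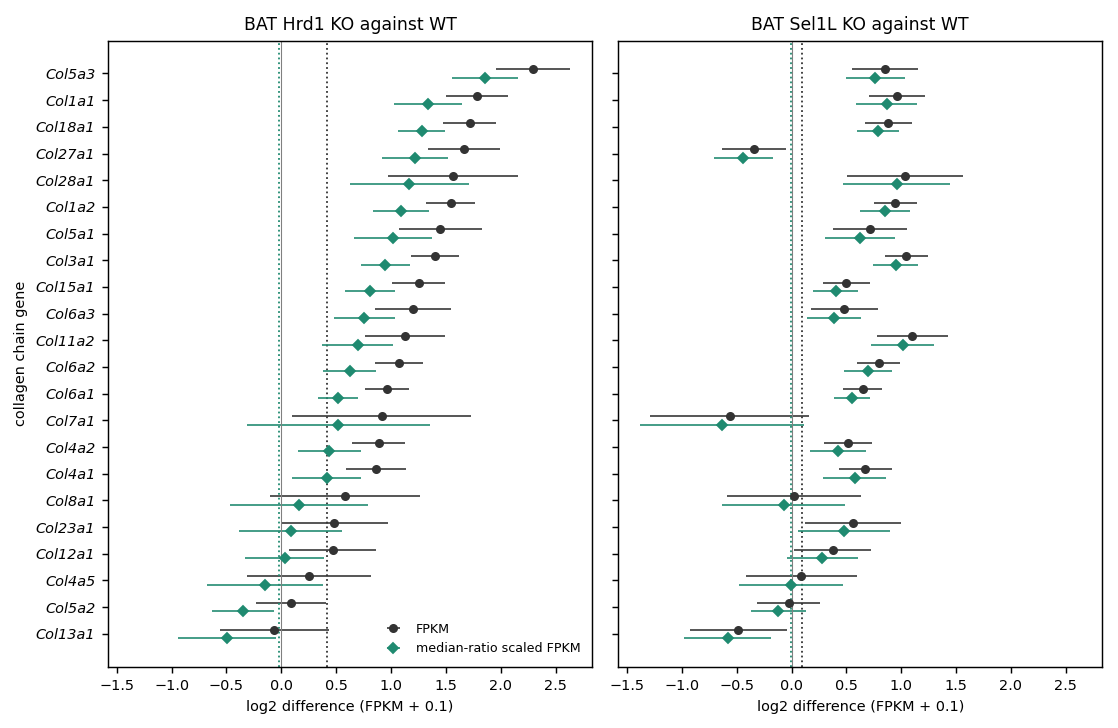
Log2 differences from WT of the 22 tested members in BAT (points, estimates; bars, SE) for FPKM and for median-ratio scaled FPKM, with dotted lines at the median of all 12473 genes tested. Col5a3, Col1a1 and Col18a1 lead in Hrd1 KO, and Col27a1 is above WT in Hrd1 KO but not in Sel1L KO.

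Of the 8 genes listed under collagen export from the ER, 3 rose in Hrd1 KO BAT at an adjusted p under 0.01 (36 of 12473 genes did). They were a transcription factor and 2 coat genes. Creb3l1, a transcription factor that drives secretory and collagen genes, was 0.38, 0.29 and 0.53 FPKM in WT, 4.30 and 5.12 in Hrd1 KO and 1.10, 1.3 and 1.53 in Sel1L KO. It rose by 3.29 ± 0.38 on the log2 scale in Hrd1 KO (SE; adjusted p = 0.0075 by limma). Creb3l1 met the filter for testing only through the knockout libraries, where it was high, so its pass is not independent of that filter. The COPII outer coat genes Sec31a and Sec13 rose by 1.70 ± 0.18 and 1.32 ± 0.16 (adjusted p = 0.0068 and 0.0096 by limma). After scaling the differences were 2.87, 1.25 and 0.87, with adjusted p of 0.0226, 0.0431 and 0.0943. In Sel1L KO Sec31a differed by 1.36 ± 0.16 (adjusted p = 0.0155 by limma), and 0 of the 8 passed.

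None of the other lists of collagen-related genes held a gene past the threshold in BAT, in either knockout. P4hb was the nearest of the 16 tested ER modification and folding genes, at 1.69 ± 0.28 in Hrd1 KO and 1.23 ± 0.25 in Sel1L KO (SE; adjusted p = 0.0208 and 0.0692 by limma), and 10 of the 16 were higher in Hrd1 KO at an unadjusted p under 0.05, against 25.4% of all genes. After scaling 6 of the 16 were, against 7.36%. Timp2, an inhibitor of matrix metalloproteinases, was 1.58 ± 0.22 higher in Hrd1 KO and 1.3 ± 0.20 in Sel1L KO (adjusted p = 0.0134 and 0.0319 by limma). Ddr1, a collagen receptor kinase, differed by 1.45 ± 0.33 in Hrd1 KO, and Ddr2 by 0.58 ± 0.31 in Sel1L KO (adjusted p = 0.0476 and 0.38 by limma). Bmp1, which trims procollagen ends, differed by 1.17 in Hrd1 KO, while Loxl1, a cross-linking enzyme, differed by -1.04 in Sel1L KO (adjusted p = 0.0740 and 0.0741 by limma). Of the 7 tested procollagen processing and cross-linking genes, 6 were above 0 in Sel1L KO, with a median of 0.29, and Loxl1 alone was below. Among partners of collagen, Lamc1 differed by 0.73 in Hrd1 KO, Nid1 by 0.68 in Sel1L KO, and Dcn by 0.75 and 0.88. After scaling, the breakdown and receptor lists held no adjusted p under 0.05 in Hrd1 KO (smallest 0.0695 and 0.1135 by limma). Of 10 basement membrane partners, 8 were higher in Hrd1 KO at an unadjusted p under 0.05, and 2 after scaling. Of 9 matrix partners 6 were higher before scaling, and after it 0 were higher and 1 lower.

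Markers of the cell types of the tissue are given beside these values. The 8 fibroblast markers summed to between 69.3 and 89.3 FPKM in WT libraries, 131 and 146 in Hrd1 KO and between 126 and 210 in Sel1L KO, and none of them was at 0 in all libraries of a group. Clec3b, a fibroblast marker, differed by 1.07 in Hrd1 KO and 0.87 in Sel1L KO (adjusted p = 0.0227 and 0.0559 by limma). The list's median was 1.05 and 1.02 over its 8 tested genes, close to the members' 1.10 in Hrd1 KO and above their 0.61 in Sel1L KO. After scaling it was 0.62 and 0.93.

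The 6 skeletal muscle markers summed to 1.17 to 3.08 FPKM in WT, 308 and 10.8 in Hrd1 KO and between 0.95 and 55.5 in Sel1L KO, with Acta1 at 60.01 FPKM in the first Hrd1 KO library. That library also held the highest FPKM of every gene in the plot of BAT levels except Col4a1, and after scaling Col3a1, Col1a1, Col1a2, Col4a2, Col6a1 and Col6a2 were highest in Sel1L KO replicate 1 instead. The 6 endothelial markers summed to 86.2 to 108 FPKM in WT, 132 and 168 in Hrd1 KO and from 77.9 to 149 in Sel1L KO, with Pecam1 at 0.60 and 0.41 on the log2 scale. The 6 mural markers summed to 101 to 127 FPKM in WT, 133 and 196 in Hrd1 KO and from 91.8 to 164 in Sel1L KO, with Acta2 at 1.06 and 0.73. After scaling, the endothelial sums were 99.23 to 114.8 in WT and 127.5 and 113.2 in Hrd1 KO. The scaled mural sums were 116.3 to 140.7 in WT and 149.3 and 114.2 in Hrd1 KO, so both lists overlapped WT. Their Hrd1 KO medians were 0.59 and 0.74 before scaling and 0.14 and 0.30 after it. In Sel1L KO the medians of the 2 lists were 0.17 and 0.06 before scaling and 0.07 and -0.04 after it. Before scaling, 5 of 6 endothelial and 3 of 6 mural markers were above 0 in Sel1L KO, and Acta2 was the highest mural marker. The first Sel1L KO library, with the highest Col4a1, held the lowest endothelial and mural sums of the 8. The 6 macrophage markers summed to 10.0 to 11.8, 16.1 to 19.8 and 19.6 to 34.1 FPKM, with Csf1r at 0.81 in Hrd1 KO and Ctss at 1.67 in Sel1L KO. The macrophage medians in Hrd1 KO and Sel1L KO were 0.76 and 0.84 before scaling and 0.34 and 0.75 after it. The 10 brown adipocyte markers summed to 25330 to 28780 in WT, 18920 and 24720 in Hrd1 KO and from 21250 to 25210 in Sel1L KO, with 8 of 10 below 0 in each knockout and medians of -0.41 and -0.27. After scaling, the brown adipocyte sums were 26800 to 31810 in WT and 14390 and 21200 in Hrd1 KO. Those in Sel1L KO, 20350 to 28820, then overlapped WT, and the medians were -0.86 and -0.36. Of these markers Plin1 stood at 0.63 in Hrd1 KO and Fabp4 at -0.33 in Sel1L KO. The 5 proliferation genes summed to 0.38 to 1.3 FPKM in WT, 1.54 and 1.27 in Hrd1 KO and from 2.25 to 3.26 in Sel1L KO, above every WT library. The part of these cell types in the collagen differences was not tested.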

How the data were processed

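RNA-seq of 9 HEK293T and 8 BAT libraries was read from the 2 tables that the authors deposited, which hold FPKM per gene. Per the methods and the submitters' processing notes, the authors mapped reads to GRCh38 or GRCm38 with STAR 2.7.8a and estimated abundance with RSEM 1.3.3, which shares reads between similar genes by estimate. All columns were used. FPKM depends on the library's total, so a few abundant genes can shift all others, and read depth is known only relatively. Tests used limma 3.58.1 (R 4.3.3) with a variance trend on log2(FPKM + 0.1), with the 3 genotypes of a table in 1 model and Benjamini-Hochberg adjustment over all genes tested. Fold changes of low genes are understated on this scale. Thresholds were 0.05 (HEK293T) and 0.01 (BAT). The test was tested on simulated data. Deviations of same-numbered libraries correlated at 0.216 to 0.485 over 9 pairs in HEK293T, which pairs them by the data alone, and at -0.060 to 0.077 in BAT. Coordinates are GENCODE's. The collagen genes and all lists were chosen with earlier results of these data known. Genes named were, per table, the 8 highest collagen genes, those past the threshold, the 2 smallest p-values per comparison and, per other list, those past the threshold or the smallest p. The result of 1 further marker list is not reported here.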

Additional observations from a re-analysis of the deposited data

Results flagged for a closer look

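COL6A1 was lower in every SEL1L KO HEK293T library than in every WT library, with a log2 difference of -0.49, while its mouse counterpart Col6a1 was higher in every Sel1L KO BAT library than in every WT library, with a log2 difference of 0.65. Neither difference passed the test. Every library was lower in SEL1L KO HEK293T cells for 3.72% of all genes, and higher in Sel1L KO BAT for 17.7%. The opposite directions drew attention, and the difference between the 2 effects was not tested, since the tables come from different species and were normalized separately.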

How the results depend on the processing

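The count of 0 collagen genes past the threshold held under a pseudocount of 1, no filter, both scalings and the replicate block in all 6 comparisons. In Hrd1 KO against WT BAT it became 1 with only the 2 groups compared, 9 at an adjusted p of 0.05, 0 to 9 on leaving out 1 library (9 without Sel1L KO replicate 1) and, chosen after seeing the data, 1 with scaling and without that library. In HEK293T it became 1 without every replicate 3 (chosen after seeing the data) in SEL1L KO against WT and in HRD1 KO against SEL1L KO, and 1 at an unadjusted p of 0.05 in SEL1L KO against WT. The Hrd1 KO median of 1.10 became 0.66 with median-ratio scaling (0.66 also without Sel1L KO replicate 1), 0.64 with quantile normalization, 1.15 with the replicate block, and 0.84 to 1.34 without 1 library. The Sel1L KO median of 0.61 became 0.47 with a pseudocount of 1, 0.31 without the filter, 0.52 scaled, 0.43 quantile normalized, 0.46 scaled without Sel1L KO replicate 1, and 0.56 to 0.66 without 1 library. The replicate block changed no call of a collagen gene at the thresholds, though the 9 members with an adjusted p under 0.05 in Hrd1 KO became 0, where the numbers do not pair the BAT libraries.

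Signs of uncalled differences turned on leaving out 1 library in HEK293T. In HRD1 KO against WT the log2 differences then ran from -0.24 to 0.16 for COL13A1, -0.41 to 0.40 for COL18A1, -1.64 to 2.87 for COL2A1, -0.14 to 0.44 for COL4A2, -0.46 to 0.22 for COL4A5, -0.045 to 0.77 for COL5A2, -0.50 to 0.54 for COL6A2, -0.84 to 1.17 for COL9A3 and -0.26 to 0.10 for ITGB1. In SEL1L KO against WT they ran from -0.037 to 0.36 for COL13A1, -0.69 to 0.012 for COL18A1 and -0.94 to 0.87 for COL9A3. In HRD1 KO against SEL1L KO they ran from -0.43 to 0.023 for COL13A1, -0.0030 to 0.67 for COL18A1, -0.13 to 0.18 for COL27A1 and -0.74 to 1.14 for COL9A3. Without every replicate 3, COL13A1 was 0.14 and COL18A1 -0.02 in HRD1 KO against WT, and COL9A3 -0.10 in SEL1L KO against WT, and COL13A1 was 0.0063 with quantile normalization. In BAT, Hrd1 KO against Sel1L KO turned to -0.039 for Col6a1, -0.075 for Col6a2 and -0.16 for Col4a1 with scaling. Of 107 gene differences, 19 turned sign in at least 1 alternative. Precision rests on 2 or 3 libraries a group, and absolute depth is unknown. Apart from the settings' own construction (fewer samples, another scale), the cause was not tested.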
